A study of Mus musculus with 2 samples.

Results

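The Zic genes encode C2H2 zinc finger transcription factors, and Zic1, Zic2, Zic4 and Zic5 were described here in the forebrain of mouse embryos at embryonic day 14.5. They were found by gene name among the 43346 Ensembl genes of each library's table, and all 4 were present, with 19 transcript models between them. The series holds total RNA-seq of 2 samples, replicates 1 and 2, and both belong to a single group, E14.5 forebrain. The labels describe each sample as 1 forebrain of 1 pup of strain B6NCrl, name no treatment or engineered allele, and give the samples different collection days. They also give both samples the same donor record and call the sex of each pooled male and female, which leaves unclear how many animals the libraries represent, so the spread between them may be partly technical. The input was 10 ng per library, restricted to molecules over 200 nt, and spike-in RNAs were added.

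Zic proteins bind DNA through zinc fingers closely related to those of the Gli factors, which carry hedgehog signals to the genome, and they act both as activators and as partners that modify Gli activity. In the embryo they are known from the dorsal neural tube and its derivatives. In the forebrain they are known from the septum, the cortical hem and the Cajal-Retzius neurons that leave it, the meninges, the thalamus and the olfactory bulb. The genes lie in divergent pairs, Zic1 beside Zic4 and Zic2 beside Zic5. Loss of Zic1 and Zic4 disturbs the cerebellum, Zic2 is needed for the forebrain midline, and Zic5 is needed for the neural crest.

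The part of the coding sequence that the 4 genes share most closely is shown first, because it bears on whether reads of 1 member can be mistaken for another. It is the 120-nt stretch with the highest summed identity to Zic1, and it lies in the first exon of the main coding transcript of every member. The stretch is at chr9:91364170-91364289 for Zic1 (minus strand) and chr9:91379149-91379268 for Zic4 (plus strand). It is at chr14:122476494-122476613 for Zic2 (plus strand) and chr14:122464026-122464145 for Zic5 (minus strand), all on GRCm38 with GENCODE M21 transcripts. The sequences are given 5′ to 3′ on the coding strand, and capitals mark the 22 positions at which the 4 genes are not all alike, the other 98 being identical in all.
Zic1: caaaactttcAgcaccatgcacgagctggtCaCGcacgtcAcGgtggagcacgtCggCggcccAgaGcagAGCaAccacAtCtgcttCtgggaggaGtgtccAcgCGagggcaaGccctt
Zic2: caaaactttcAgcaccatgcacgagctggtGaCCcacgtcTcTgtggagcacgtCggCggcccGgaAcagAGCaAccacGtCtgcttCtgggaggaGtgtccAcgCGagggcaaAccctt
Zic4: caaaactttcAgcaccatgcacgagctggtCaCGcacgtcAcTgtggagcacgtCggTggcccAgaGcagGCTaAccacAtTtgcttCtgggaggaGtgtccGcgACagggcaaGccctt
Zic5: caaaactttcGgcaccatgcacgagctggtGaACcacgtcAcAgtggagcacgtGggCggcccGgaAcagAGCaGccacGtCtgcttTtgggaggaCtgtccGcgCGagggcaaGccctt
Within this stretch Zic1 was 93.3% identical to Zic2 and 92.5% identical to Zic4, while Zic4 and Zic5 were the least alike pair at 84.2%. Zic2 and Zic5, the other chromosomal neighbours, were 91.7% identical. The longest run of coding bases shared without a mismatch was 42 nt, between Zic1 and Zic4, and it opens the stretch above. For the other pairs the longest run was between 20 nt (Zic1 and Zic5) and 35 nt (Zic1 and Zic2). None of the distinct 100-nt words in the transcripts of a member occurred in another member on either strand.

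The same words, which stand in for reads, were then looked up in all other genes. Zic1 and Zic2 shared no 100-nt word with any other gene among the deposited transcripts. Zic5 shared 91 of its 4790 words (1.90%) with the gene model Gm12241. Zic4 shared 369 of 10385 (3.55%) with Gm37477, a model without assigned function that lies inside Zic4 on the opposite strand. The deposited count of Zic4 was 2324.78 in replicate 1 and 2215.79 in replicate 2, and that of Gm37477 was 33.22 and 24.21. Together they came to 2358.00 and 2240.00, so the 2 genes split whole reads between them. The use of strand in counting is not given in the sources used here, but strand did not keep the reads of these 2 genes apart. In that overlap the counts of Gm37477 and Zic4 are therefore a division by estimation.

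Zic4 was the most abundant of the 4 genes in both libraries and Zic1 the next. In bulk tissue, more cells of a type and more RNA per cell cannot be told apart. Levels are given in TPM, a unit the authors scaled for transcript length and library size, followed by the deposited interval, which is of unstated confidence. Zic4 stood at 36.84 TPM in replicate 1 (interval 34.4 to 40.1) and 47.61 TPM in replicate 2 (44.5 to 51.2), a mean of 42.2 ± 7.62 TPM (SD, n = 2). Zic1 stood at 11.94 TPM (11.2 to 12.8) and 12.59 TPM (11.7 to 13.5), a mean of 12.3 ± 0.460 TPM (SD, n = 2). The Zic1 libraries were nearly level, while the Zic4 libraries lay apart with replicate 2 the higher.

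The chromosome 14 pair was expressed at lower levels. Zic5 stood at 7.91 TPM (7.18 to 8.64) in replicate 1 and 9.25 TPM (8.09 to 10.3) in replicate 2, a mean of 8.58 ± 0.948 TPM (SD, n = 2). Zic2 stood at 6.04 TPM (5.30 to 6.75) and 8.31 TPM (7.13 to 9.21), a mean of 7.18 ± 1.61 TPM (SD, n = 2). Replicate 2 was the higher for both, with overlapping intervals for Zic5 and separate ones for Zic2.

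**Figure D1:**
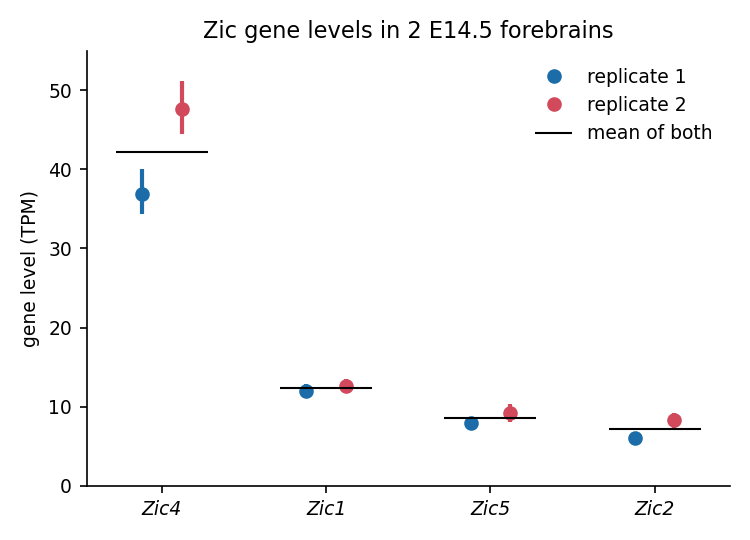
Gene level in TPM (vertical axis) of the 4 Zic genes in the 2 forebrain libraries. Points are libraries, vertical bars the deposited TPM intervals and horizontal lines the means of both. Zic4 lies at 36.84 and 47.61 TPM, above all values of the other 3 genes, which lie between 6.04 and 12.59 TPM.

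The counts behind these levels were ample for Zic4 and smallest for Zic2. Zic4 had 2325 expected counts in replicate 1 (95% Poisson interval 2231 to 2421) and 2216 in replicate 2 (2124 to 2310), and Zic1 had 1493 (1418 to 1571) and 1222 (1154 to 1292). Zic5 had 822 (767 to 880) and 700 (649 to 754). Zic2 had 305 in both libraries (272 to 341). These intervals cover counting error only, since reads without molecular identifiers are not independent molecules. Zic2 thus had the same count in each library at different TPM. Replicate 2 was the shallower library (29250404 against 35310017 expected counts), and the deposited mean length of Zic2 was 2304 nt in replicate 1 and 2182 nt in replicate 2.

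The order Zic4, Zic1, Zic5, Zic2 held in both libraries, and it was clear at every step but the last. Zic4 exceeded Zic1 by 1.63 and 1.92 on the log2 scale in replicates 1 and 2 (mean 1.77 ± 0.21, SD, n = 2), a mean of 3.42-fold. Zic1 exceeded Zic5 by 0.59 and 0.44 (mean 0.52 ± 0.11, 1.43-fold). Zic5 exceeded Zic2 by 0.39 and 0.15 (mean 0.27 ± 0.17, 1.21-fold). A pair was called apart when the deposited intervals did not overlap in either library, in the same direction. Of the 6 possible pairs 5 were apart, and Zic5 and Zic2 were not, since their intervals overlapped in replicate 2. With 2 libraries an exact test cannot go below p = 0.5, so no test was made.

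The lead of Zic4 over Zic1 depends on how transcripts are counted. With protein-coding transcripts alone the mean log2 ratio was 1.11, and with expected counts not divided by length it was 0.75. Division by length also weighs on Zic2, whose transcripts are short: by undivided counts the log2 ratio of Zic1 over Zic2 was 2.15 and that of Zic5 over Zic2 was 1.31. The direction of all 6 ratios was kept in 36 of 36 alternative values. Those from a single library or with a pseudocount of 1 TPM could not reverse, since the order held in both libraries. Only the values from coding transcripts, posterior means and undivided counts were open to reversal.

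The 4 genes summed to 62.7 TPM in replicate 1 and 77.8 TPM in replicate 2 (mean 70.2 ± 10.6, SD, n = 2). Zic4 made up 58.7% and 61.2% of that sum, Zic1 19.0% and 16.2%, Zic5 12.6% and 11.9%, and Zic2 9.6% and 10.7%. The chromosome 9 pair together held 77.8% and 77.4%, so the balance between the loci was nearly the same in both libraries. Ranked within the nuclear protein-coding genes that averaged at least 0.1 TPM, the mean level of Zic4 was at the 75.5th percentile, Zic1 at the 48.8th, Zic5 at the 41.9th and Zic2 at the 38.8th.

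The loci differ in how their genes are laid out. Zic1 (ENSMUSG00000032368) occupies chr9:91358058-91365810 on the minus strand, and Zic4 (ENSMUSG00000036972) chr9:91362413-91389348 on the plus strand. The main Zic1 start and the start of the coding model Zic4-207 are 3044 nt apart, and the annotated gene bodies overlap by 3398 nt, because the model Zic4-208 begins inside Zic1. Zic2 (ENSMUSG00000061524) occupies chr14:122475435-122479852 on the plus strand, and Zic5 (ENSMUSG00000041703) chr14:122456795-122465677 on the minus strand. Their starts are 9758 nt apart, and the bodies do not overlap.

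**Figure D2:**
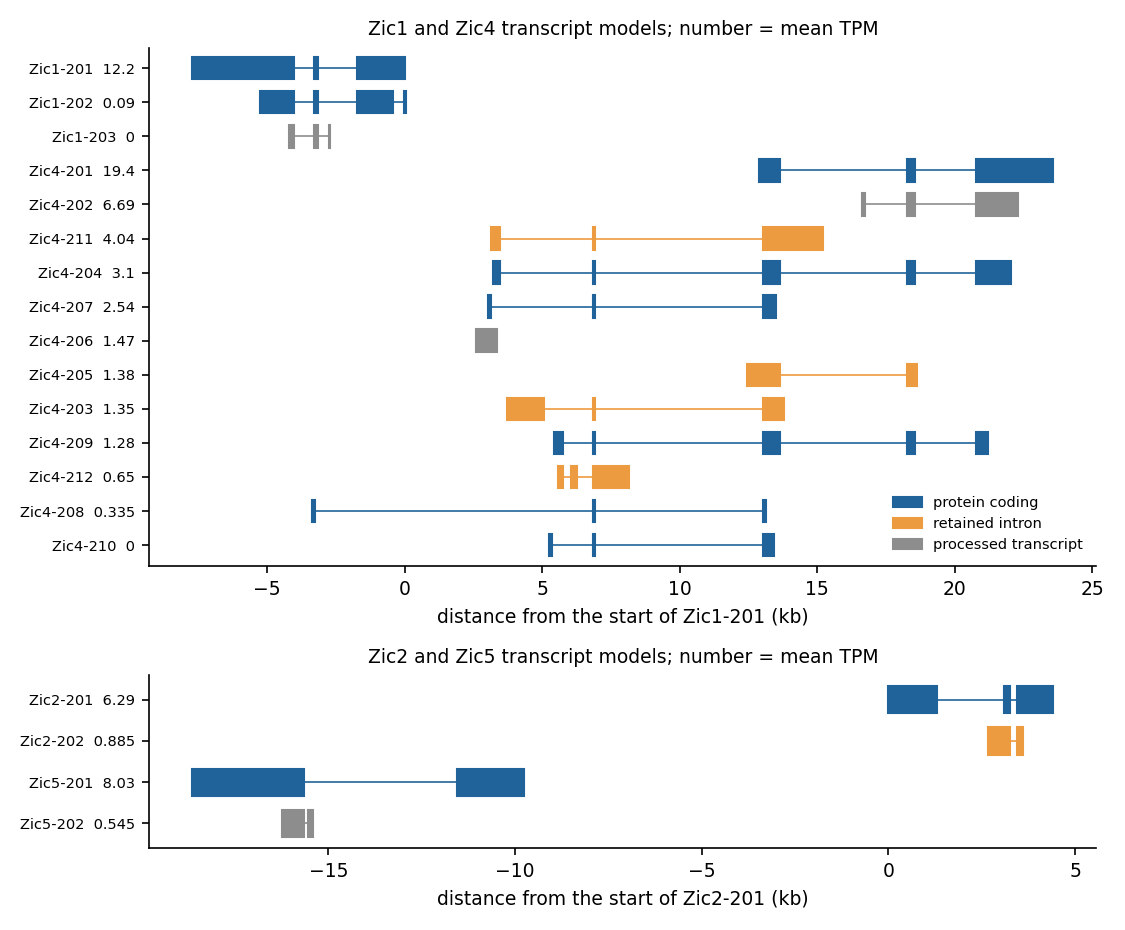
Transcript models of the Zic1 and Zic4 locus (top) and the Zic2 and Zic5 locus (bottom) by distance in kb from the start of Zic1-201 or Zic2-201; boxes are exons, lines introns, colours model types, and the number beside each name is its mean TPM over 2 libraries. Zic1 and Zic5 run to the left and Zic4 and Zic2 to the right; Zic4-201, the model with the highest mean (19.4 TPM), starts 9830 nt beyond Zic4-207.

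The sequence before the RefSeq starts of the chromosome 9 pair differed in base composition and is shown to place those starts among the annotated models. Promoters came from RefSeq (GRCm38.p6) as the 250 bases before the annotated start, and 3 of the 4 members had an entry: Zic1, Zic4 and Zic5. The part printed stops before Zic1-202 and before Zic4-207, the first coding models to begin within these windows. The coding model Zic4-204 also begins in the Zic4 window, at position 91368970. The parts printed are chr9:91365811-91366018 (minus strand) for Zic1 and chr9:91368722-91368811 (plus strand) for Zic4, 5′ to 3′ on the gene's strand. Capitals mark CpG dinucleotides, and the stretch printed for Zic4 has none. That stretch lies inside the first exon of Zic4-206, a processed transcript, downstream of the start of Zic4-208 and 9830 nt or more before the start of Zic4-201, the model with the highest level. It is therefore not the sequence before the main Zic4 start.
Zic1: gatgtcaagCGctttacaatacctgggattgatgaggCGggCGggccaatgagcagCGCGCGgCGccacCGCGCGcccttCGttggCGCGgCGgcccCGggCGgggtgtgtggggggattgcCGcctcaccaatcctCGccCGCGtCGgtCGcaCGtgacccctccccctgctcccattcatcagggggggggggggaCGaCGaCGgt
Zic4: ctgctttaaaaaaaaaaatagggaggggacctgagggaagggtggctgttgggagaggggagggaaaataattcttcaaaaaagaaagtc
Over its 250 bases the Zic1 promoter held 27 CpG at 66% GC, and 91.4% of 32851 promoters of that length held fewer. The Zic4 promoter held 4 CpG at 44.4% GC, with 37.8% of promoters below it, and the Zic5 promoter 11 CpG at 62.4% GC, with 64.4% below it. The median promoter held 6.

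Fixed motifs were searched on both strands in the same windows. GGGCGG, a GC box, occurred 2 times before Zic1 and not before Zic4 or Zic5, against 32.7% of all promoters with a match. CCAAT occurred 2 times before Zic1 and not in the other windows (33.8% of all promoters). GGGTGG, a core of published Gli and Zic binding motifs, occurred 1 time before Zic4 and 1 time before Zic5 and not before Zic1 (28.1%). TATAAA occurred in none of the 3 windows (12.4%). These are matches of letters, and binding was not measured.

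Zic1, Zic2 and Zic5 were each expressed mainly as 1 coding transcript. Zic1-201 (5606 nt, 3 exons) held 98.5% of the Zic1 TPM in replicate 1 and 100% in replicate 2. Zic5-201 (4767 nt, 2 exons) held 96.9% and 90.8% of the Zic5 TPM, and the rest lay on Zic5-202, a model without a coding region, at 3 and 9 expected counts. Zic2-201 (2440 nt, 3 exons) held 91.9% and 84.6% of the Zic2 TPM. The rest, 8.1% and 15.4%, lay on Zic2-202, a retained-intron model of 765 nt with 7 and 15 expected counts. The minor models of Zic2 and Zic5 thus rested on few reads, with a higher share in replicate 2 in both cases.

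Zic4 was spread over many models. Of its 12 models, 6 are coding, 4 retain an intron and 2 are processed transcripts, and 10 had at least 1 expected count in both libraries. Coding models held 64.4% of the Zic4 TPM in replicate 1 and 62.1% in replicate 2 (mean 63.3% ± 1.61, SD, n = 2). Retained-intron models held 18.1% and 17.1%, and processed transcripts 17.5% and 20.7%. In coding transcripts alone Zic4 stood at 23.72 and 29.58 TPM, still above the other members' whole levels in both libraries.

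Zic4-201 (3891 nt, 3 exons) led the gene at 18.76 TPM (interval 16.9 to 19.7) and 20.02 TPM (17.7 to 21), which was 50.9% and 42.0% of it. Zic4-202, a processed transcript, followed at 5.12 and 8.25 TPM (13.9% and 17.3%). Zic4-211, a retained-intron model, was level at 4.02 and 4.06 TPM (10.9% and 8.5%). Zic4-207, a coding model whose annotated coding region has no stop codon, stood at 2.95 and 2.13 TPM (8.0% and 4.5%). The intervals of Zic4-202 and Zic4-207 overlapped between the libraries.

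Zic4-204 (2535 nt, 5 exons), a coding model, had separate intervals in the 2 libraries, as did Zic2-201 (1.27-fold) and Zic4-212, which averaged 0.650 TPM. Zic4-204 stood at 0.96 TPM in replicate 1 (interval 1.28e-05 to 2.08) and 5.25 TPM in replicate 2 (2.58 to 6.73), from 53 and 225 expected counts. The ratio was 5.47-fold, and its share of the gene went from 2.6% to 11%. Among the 12 Zic models with a mean of 1 TPM or more, it was the only 1 called at 1.5-fold or more with separate intervals. By that rule 7.39% of 31182 transcripts of the libraries were called. A call of 1 in 12 is near that share, so nothing particular to Zic4-204 is read from the call. Of the gene's difference of 10.77 TPM, Zic4-204 accounted for 4.29, Zic4-202 for 3.13 and Zic4-201 for 1.26. The models share exons, so reads are divided among them by estimation, and the lower bound in replicate 1 is close to 0.

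**Figure D3:**
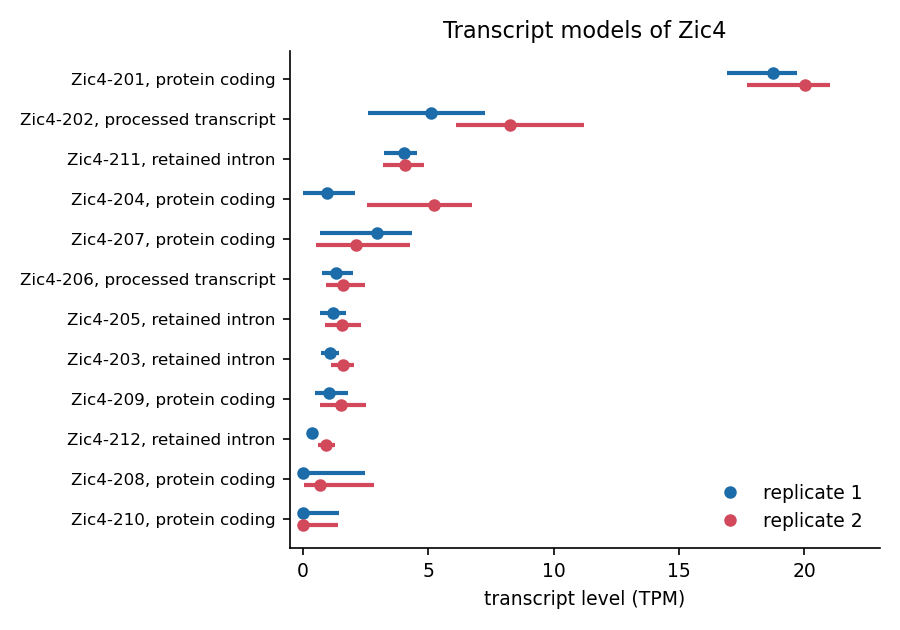
Level in TPM (horizontal axis) of the 12 Zic4 transcript models in each library; points are deposited TPM and bars the deposited intervals. The bars of Zic4-204 are separate, at 0.96 TPM in replicate 1 and 5.25 TPM in replicate 2, as are those of Zic4-212 at 0.37 and 0.93 TPM. Those of Zic4-201 overlap at 18.76 and 20.02 TPM.

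Grouped by where they start, the Zic4 models came mainly from a pair of regions. The 2 models that start at chr9:91378197-91378642, Zic4-201 among them, held 54.2% of the Zic4 TPM in replicate 1 and 45.3% in replicate 2. The 5 models that start at chr9:91368367-91369498, near the RefSeq start, held 28.1% and 30.8%. Zic4-202, which starts at position 91382410, made up the 13.9% and 17.3% given above, and 3 models starting at chr9:91371004-91371350 held 3.9% and 5.1%. Zic4-208, the model that begins inside Zic1, held 0.0% and 1.4%. Transcript starts were not measured directly, so these shares are those of the annotated models.

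The members also differed in the make-up of their main transcripts. The coding sequence was 1344 nt in Zic1-201, 1590 nt in Zic2-201, 1026 nt in Zic4-201 and 1869 nt in Zic5-201, each from ATG to a stop codon. Its GC content was 62.0%, 66.2%, 58.7% and 67.9%, lowest in Zic4. Zic4-204 and Zic4-209 carry a coding sequence of 1005 nt. Over the whole transcript GC content was 45.7% in Zic1-201, 47.4% in Zic4-201, 49.8% in Zic5-201 and 59.9% in Zic2-201, beside a median of 50.4% over 58737 coding transcripts of the annotation. Coding sequence made up 65.2% of Zic2-201 but 24.0% of Zic1-201, 26.4% of Zic4-201 and 39.2% of Zic5-201.

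Genes near the members were looked up by position. Within 100 kb of Zic1 or Zic4, 7 genes besides the pair were measured, and 2 reached 1 TPM in both libraries. These were Gm37477 inside Zic4 (1.85 and 1.75 TPM) and the long non-coding gene Gm29478 (1.04 and 1.16 TPM). Near Zic2 and Zic5, 3 of 7 reached it, where 32.8% of all 43346 genes did, and nothing particular to the loci is read from these counts. The mitochondrial enzyme genes Pcca (20.87 and 22.13 TPM) and Clybl (15.60 and 13.49 TPM) lie over 50 kb away, and the non-coding gene 2610035F20Rik (3.98 and 3.59 TPM) starts 236 nt from Zic2 on the opposite strand. Zic2 was thus above its closest divergent neighbour in both libraries.

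All 4 members had a higher TPM in replicate 2, but none was called different between the libraries. To be called, a gene needed a mean of at least 1 TPM, a ratio of at least 1.5-fold and separate deposited intervals, and 7.07% of 14758 genes were called, against 0 of 4 members. The log2 ratio of replicate 2 over replicate 1 was 0.08 for Zic1 (1.05-fold), 0.23 for Zic5 (1.17-fold), 0.37 for Zic4 (1.29-fold) and 0.46 for Zic2 (1.38-fold). The intervals were separate for Zic2 and Zic4, where 32.1% of genes had separate intervals with replicate 2 the higher. The libraries were shifted as a whole: the median log2 ratio over all genes was 0.16, and 71.7% of genes were higher in replicate 2. Relative to that median Zic1 was at -0.08, Zic5 at 0.07, Zic4 at 0.21 and Zic2 at 0.30. The sizes of the 4 ratios had percentiles of 18.3 (Zic1), 50.1 (Zic5), 70.7 (Zic4) and 79.6 (Zic2) among all genes.

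The direction for Zic1 and Zic5 is not fixed by these data. With CPM (counts scaled by library total) after TMM normalization, a scaling that assumes most genes are level, the median over genes was -0.02, Zic1 was at -0.09 and Zic5 at -0.03, and Zic4 and Zic2 remained positive at 0.13 and 0.20 with overlapping intervals. With FPKM, which the authors deposited beside TPM, Zic1 was at -0.03 and only the intervals of Zic4 were separate. Of the genes called over the whole table, 92.0% were higher in replicate 2 in TPM, 53.8% after TMM and 75.0% in FPKM. No member was called under either scaling.

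Genes of the meninges, a tissue in which Zic genes are known to be active, also had higher TPM in replicate 2. Of 11 meningeal genes 10 were higher there, 5 were called higher and none lower, against 6.50% of all genes called higher and 0.562% called lower. The list summed to 330 and 449 TPM in replicates 1 and 2. Among those called, Col1a1, a fibrillar collagen gene, went from 17.12 to 35.51 TPM, and Col1a2 from 27.61 to 49.22 TPM. The highest genes of the list rose less and were not called: Col3a1 (log2 ratio 0.42), Cxcl12 (0.26) and Dcn (0.36). The median log2 ratio of the list was 0.42, where that of all genes averaging at least 1 TPM was 0.16. Over all their genes with a ratio, medians were also positive for the Gli-related (0.37), cortical hem (0.30) and Cajal-Retzius (0.27) lists. These lists hold genes averaging under 1 TPM, which the meningeal list does not, so their medians are not directly comparable with 0.16. Medians were 0.01 for the choroid plexus list, -0.08 for the telencephalon list and -0.11 for the hypothalamus and eye list. As given above, the libraries were shifted as a whole. None of the 11 meningeal genes was at 0 in either library, and the part of the meninges in the Zic values was not tested.

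**Figure D4:**
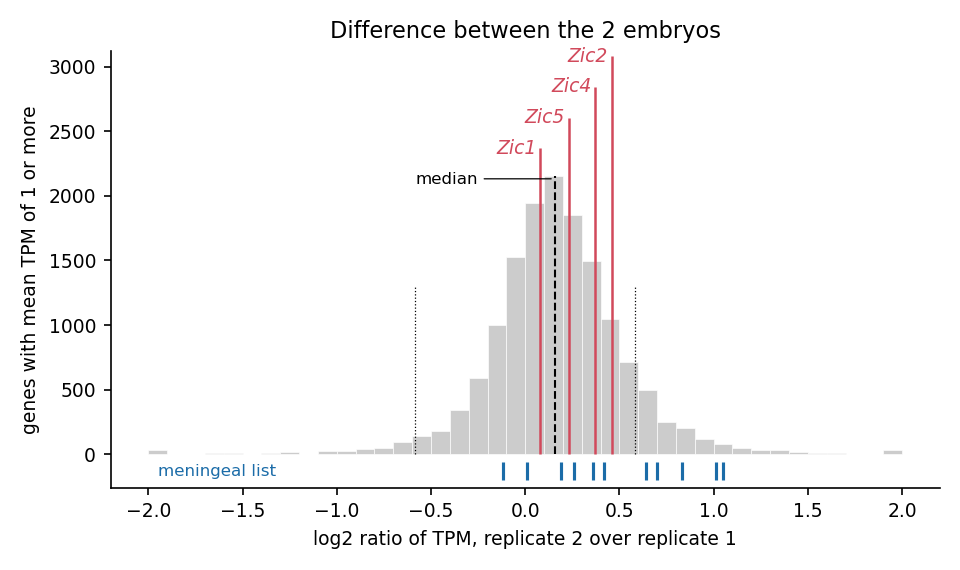
Number of genes (vertical axis) by log2 ratio of TPM, replicate 2 over replicate 1, for the 14758 genes that averaged at least 1 TPM; the outermost bars also hold genes beyond the axis. Red lines mark the Zic genes (0.08 to 0.46), the dashed line the median (0.16), dotted lines 1.5-fold, and blue ticks the 11 meningeal genes; all 4 Zic lines lie between the dotted lines.

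Set beside related genes, Zic4 was above every one of 10 genes for Gli-related zinc finger factors and transducers of hedgehog signalling. Of that list 7 reached 1 TPM in both libraries, with a median mean level of 5.49 TPM, where 12795 of 21461 nuclear protein-coding genes did and their median was 4.25 TPM. Sufu, a cytoplasmic inhibitor of Gli proteins, led at 17.78 and 23.25 TPM, and Gli3, the main Gli repressor of the forebrain, stood at 11.63 and 9.57 TPM, below Zic1 in both libraries. Glis2, a Gli-like factor, stood at 7.76 and 8.95 TPM and Smo, the hedgehog signal transducer, at 7.85 and 8.53 TPM, near Zic5. Gli1, a target of active hedgehog signalling, stood at 0.48 and 0.86 TPM. All 4 members were above the list's median.

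The tissue label was checked against region markers, which also place the Zic levels among those of regions where the family is known to act. All 10 telencephalon genes reached 1 TPM in both libraries (median 39.7 TPM), and 0 of 8 hindbrain and cerebellum genes did (summed level 0.520 and 0.870 TPM), nor did any of 6 skeletal muscle and somite genes. Lhx2, a cortical selector, stood at 84.47 and 72.67 TPM and Emx1, a cortical factor, at 57.08 and 52.20 TPM. The myogenic factor Myf5 had no counts, which allows up to 0.0661 and 0.0858 TPM in replicates 1 and 2. Listed markers of the hindbrain and cerebellum and of the muscle and somite, where Zic genes are also known to act, were therefore all below 1 TPM. Some were above the counting floor, the highest being Gbx1 (0.43 and 0.42 TPM) and Meox1 (0.29 and 0.43 TPM).

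Markers of several forebrain territories of Zic expression were detected, to differing degrees. The thalamus and prethalamus list reached 1 TPM in 8 of 8 genes (median 14.1 TPM), led by Tcf7l2, a Wnt effector of the thalamus, at 159.81 and 185.88 TPM. The septum and rostral list reached it in 7 of 8 (7.37 TPM), and its highest mean was that of Fgf15, a secreted growth factor, at 28.81 and 21.62 TPM. In replicate 2 Spry2, an inhibitor of growth factor signalling, was higher (19.05 and 23.83 TPM). The olfactory bulb list reached it in 5 of 6 (8.29 TPM), led by Pbx3 at 50.03 and 52.53 TPM, with Tbx21 lowest at 0.11 and 0.10 TPM. The cortical hem list reached it in 8 of 13 (2.16 TPM): the dorsal midline factor Msx1 stood at 10.39 and 13.73 TPM and the ligand Wnt5a at 10.34 and 12.07 TPM. The ligands Wnt3a (0.90 and 0.51 TPM) and Wnt2b (0.36 and 0.69 TPM) were below 1 TPM in both libraries, and Gdf7 had no counts. All 4 Zic genes were above the median of the cortical hem list. Cajal-Retzius genes reached it in 8 of 9 (4.22 TPM), among them Reln, the secreted layering signal, at 48.99 and 45.41 TPM and Trp73 at 3.83 and 4.61 TPM. Choroid plexus genes reached it in 6 of 8 (9.20 TPM), with Ttr, a thyroid hormone carrier, at 763.94 and 777.77 TPM. By mean level Zic4 was above the median of each of the 12 lists, while in replicate 1 its 36.84 TPM was below the telencephalon median of 37.9 TPM. Meningeal genes reached it in 10 of 11 (26.3 TPM) and hypothalamus and eye genes in 3 of 8 (0.818 TPM). Over all 12 lists 72 of 105 genes reached 1 TPM in both libraries.

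**Figure D5:**
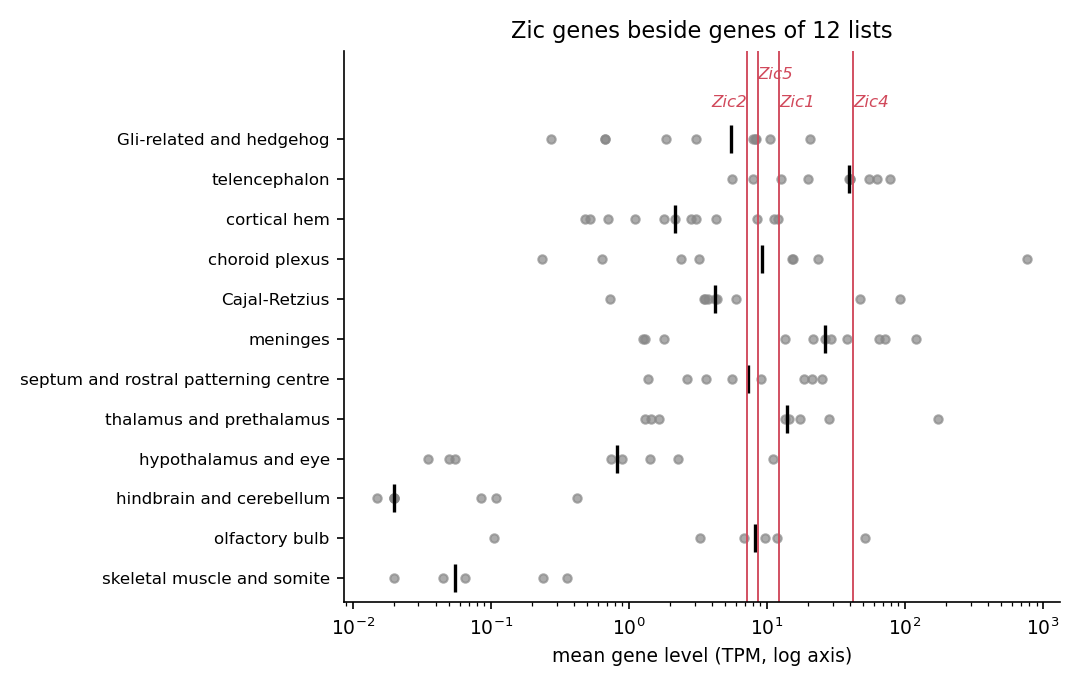
Mean level in TPM (horizontal log axis) of the genes of 12 lists, 1 row a list; grey points are genes, black ticks the list medians and red lines the 4 Zic genes, and 3 genes without counts are not drawn. Zic4 at 42.2 TPM is above all genes of the Gli-related, cortical hem and septum rows, and all 4 lines lie to the right of every hindbrain and muscle gene.

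The genes of these lists nearest to each member in level were found by the distance of log2 TPM over the 2 libraries. For Zic4 these were Dlx2, a factor of subpallial progenitors (37.26 and 43.61 TPM, distance 0.13), and Tbr1, a factor of deep-layer cortical neurons (38.53 and 40.22 TPM, 0.25). For Zic1 they were Tshz1 (12.30 and 11.48 TPM, 0.14) and Nkx2-1, a factor of the ventral telencephalon (13.27 and 11.84 TPM, 0.18). For Zic5 they were Glis2 (0.06) and Smo (0.12), and for Zic2 the hedgehog receptor Ptch1 (7.38 and 8.42 TPM, 0.29) and Th, the dopamine synthesis enzyme (6.85 and 6.89 TPM, 0.33). Over 2 libraries such likeness is one of level, and no pattern across conditions could be compared.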

How the data were processed

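The data are 2 libraries of total RNA from E14.5 forebrain, in 1 group. Per the file headers, the authors deposited expected counts (estimated reads, not always whole), TPM and FPKM for genes and transcripts, and for each transcript its share of the gene, as a percent. The deposited bounds of each TPM interval are a signal in TPM units whose level is not stated. Reads were assigned to mm10 with GENCODE M4, per the deposited notes on the files; the aligner, the counting program and the use of strand are not given in the sources used here. Ambion mirVana reagents were used for extraction and the linked general protocol is named for Smart-seq, per the labels' protocols.

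Names, gene types and positions are those of GENCODE M21 (GRCm38) by ID without version, which matched 42462 of 43346 genes (98.0%), and all 19 Zic models had the same length in the files. Depth was 35310017 and 29250404 expected counts in replicates 1 and 2. Where no read was counted, up to 3 counts are allowed; at 1 kb effective length that is 0.131 and 0.170 TPM. Values are means ± SD over 2 libraries, and 95% Poisson intervals cover counting error only. Ratios used no pseudocount. For the TMM alternative, expected counts were rounded to whole numbers (edgeR 4.0.16 in R 4.3.3), and deposited intervals were scaled with the values. Other steps used Python 3.11.15, numpy 2.4.6, pandas 2.3.3 and scipy 1.17.1. The rule for differences between the libraries was tested on simulated Poisson counts, with changes larger than its threshold and Poisson intervals in place of the deposited ones. The rule for pairs of members was not simulated.

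The members and the gene lists were chosen with earlier results of these data known. Genes named were the members, their models with 5 percent or more of the gene in either library, genes within 100 kb with a mean of 1 TPM or more or overlapping a member, the 4 highest genes of each list and any under 0.1 TPM, and the 2 list genes nearest in level to each member. Of these, those that bear on a result are printed. Outside this rule, Zic4-208, Zic4-209, Gli1, Trp73, Col1a1, Gm12241, Wnt3a, Wnt2b and Tbx21 were named after their values were seen. The call rule was extended to transcripts after the data were seen. The planned protein comparison was not made, since protein sequences were not used here. Some members of the gene lists are not reported here, but counts and medians include them.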

Additional observations from a re-analysis of the deposited data

How the results depend on the processing

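Mean levels in TPM rescaled over nuclear protein-coding genes were 14.9 for Zic1, 51.2 for Zic4 and 10.4 for Zic5, each moved by more than the spread between libraries. In FPKM, another unit, they were 7.67 for Zic1, 4.46 for Zic2, 26.3 for Zic4 and 5.35 for Zic5. Leaving out each library in turn gave 11.9 to 12.6 TPM for Zic1, 6.04 to 8.31 for Zic2, 36.8 to 47.6 for Zic4 and 7.91 to 9.25 for Zic5. Among all nuclear protein-coding genes the percentiles were 63.1 for Zic1, 55.8 for Zic2, 82.3 for Zic4 and 58.1 for Zic5, and among those with a mean of 1 TPM or more 39.3, 27.4, 70.9 and 31.2; the background differs by construction. The share of Zic1-201 was 96.3% by posterior means, and 3 neighbouring genes rather than 5 reached 1 TPM within 50 kb.

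The count of genes called different between the libraries was 1043 in TPM, 530 after TMM, 669 with a pseudocount of 1 TPM, 190 at 2-fold and 663 in FPKM, an alternative chosen after seeing the data. The direction for Zic1 reversed after TMM (-0.09) and in FPKM (-0.03), and that for Zic5 after TMM (-0.03); the cause was not tested. The number of members called was 0 under every setting run. The 2-fold, no-filter and pseudocount settings could not have added a call, since no member reached 1.5-fold in TPM. Of the 36 alternative values of the pair ratios, 11 moved by 1 SD or more. With 1 library left out, 5 or 6 of the pairs were apart.

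No paired analysis was possible because the series has 1 group. The planned protein comparison was not run. With 2 libraries and intervals of unstated level, differences between neighbours in the order, and models with few counts, are the least certain values.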
